A study of Mus musculus with 16 samples.

Results

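The comparison described here set trained against untrained mice, all of them carrying a tumor. Of the 16 sequenced mice of the study, 8 were its members, which were the 4 mice of the TE group and the 4 mice of the T group, chosen by their sample labels alone. All were wild-type male BALB/c mice, 8 weeks old at purchase, that received CT26 cells, a colon carcinoma line of the same strain, under the skin of the left dorsolateral hind limb region. The TE group ran on a treadmill at 14 m/min for 60 min a day on 6 days a week for 4 weeks, starting on the day after the cells were given, and the T group was placed on a treadmill that did not move. The tumor-free mice of the study, which received saline and were either untrained (C group, 4 mice) or trained (E group, 4 mice), were used for background levels. PolyA RNA of the gastrocnemius, the large calf muscle, was counted per gene. The labels give the same batch for all libraries, and they do not say whether the muscle sequenced lay on the side of the tumor. The sequenced mice were a random draw from larger groups, so each value below stands for 1 mouse. In pieces of whole muscle, fewer cells of a type and less RNA per cell cannot be told apart.

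Skeletal muscle of tumor-bearing animals loses mass, and endurance running is known to act on muscle fibres through load, calcium and energy demand, which set the slow or fast contractile genes and the genes of oxidative metabolism. Muscle fibres also respond to cytokines. Interferon gamma, which is made by T cells and natural killer cells, binds its receptor, signals through the kinases Jak1 and Jak2, and induces large guanylate-binding proteins (Gbp genes) and immunity-related GTPases (Igtp, Irgm, Tgtp and Iigp genes), together with the MHC class I presentation genes.

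The 8 libraries held between 36609982 and 37563279 counts, so that 3 counts in a library correspond to between 0.0789 and 0.0866 CPM, the count of a gene scaled to library size with TMM factors, in which all levels are given below. All 10 genes of the skeletal muscle list were tested, and their summed level lay between 153271 and 176756 CPM in the 8 mice. One library stood apart. TE replicate 4 held lymphoid genes at a level that no other tumor-bearing mouse had, and the counts below were therefore also taken without it.

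Between TE and T, 14749 genes were tested with edgeR's quasi-likelihood test, and no gene passed an adjusted p-value of 0.05 (0% of the genes tested). The smallest adjusted p-value was 0.0711, which Gbp7 and Gbp5 had. At an unadjusted p-value under 0.05, 423 genes were higher in TE (2.87%) and 444 were lower (3.01%). These shares are the background for the counts of genes given below. With 1 T or TE mouse left out, 372 to 625 genes were higher and 355 to 527 were lower at that p-value. Without both T replicates 3 and 4, 715 of 15329 genes were higher and 429 were lower. DESeq2 in place of edgeR gave 7 genes at an adjusted p-value under 0.05, among them Gbp4, Gbp5, Gbp7, Tgtp1, Glycam1 and Myh3, of which Glycam1 had counts in 1 of the 8 libraries and Myh3 was high in 1 of them. Without TE replicate 4, 14941 genes were tested, and Gbp7 alone passed the adjusted threshold (0.00669% of the genes tested). No gene passed there with DESeq2's size factors, the replicate block, limma-voom or any further T or TE mouse left out, whereas DESeq2 gave 4 genes. There, 372 genes were higher (2.49%) and 391 lower (2.62%) at an unadjusted p-value under 0.05. The lists with and without that mouse shared 476 genes, which were 54.9% of the first list and 62.4% of the second. In 183 genes (1.24%) every TE mouse lay above every T mouse, and in 197 genes (1.34%) every TE mouse lay below every T mouse.

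GTPases induced by interferon gamma were higher in TE with and without TE replicate 4. Of the 20 listed members with counts deposited, 19 were tested, 18 of these were higher in TE, and 14 were higher at an unadjusted p-value under 0.05, against 2.87% of all genes. Their median log2 fold change was 0.55, against 0.00 over all genes tested. Without TE replicate 4, all 19 were higher, again 14 of them at an unadjusted p-value under 0.05, with a median of 0.55. With any other single mouse of the T and TE groups left out, between 11 and 14 members were higher under that p-value, and 0 were lower. The members are listed as targets of interferon gamma from textbook knowledge, and the list was written with earlier results for Gbp5 and Gbp7 known.

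Gbp7 (chr3:142236044-142255910, GRCm39, plus strand) encodes a guanylate-binding protein that acts against intracellular microbes. Its level was 32.8, 29.0, 29.6 and 24.8 CPM in TE replicates 1 to 4, and 19.0, 20.2, 20.3 and 19.9 CPM in the T mice. The groups did not overlap, and the T mice lay close together (19.8 ± 0.592 CPM, SD, n = 4, against 29.1 ± 3.29 CPM in TE). The log2 fold change was 0.55 ± 0.09 (SE, adjusted p = 0.0711 by edgeR's quasi-likelihood test) with all mice. Without TE replicate 4, the lowest of the TE mice, Gbp7 rose by a log2 fold change of 0.63 ± 0.09 (adjusted p = 0.0437 by edgeR's quasi-likelihood test). Over the alternatives without that mouse its adjusted p-value ranged from 1.99e-05 in DESeq2 to 0.341, so the call depends on the setting. The tumor-free mice held it at 21.7 ± 2.5 CPM (C) and 21.2 ± 1.4 CPM (E), so the T group lay near the tumor-free level and the TE group above it.

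Gbp5 (chr3:142199739-142228105, plus strand) lies beside Gbp7 and encodes a guanylate-binding protein that promotes inflammasome assembly. Its level was 11.1, 12.9, 13.3 and 15 CPM in TE replicates 1 to 4, and 8.11, 9.04, 5.84 and 6.52 CPM in the T mice. The 2 groups did not overlap, and TE replicate 4 was here the highest mouse and not the lowest. The log2 fold change was 0.82 ± 0.14 with all mice (adjusted p = 0.0711 by edgeR) and 0.76 ± 0.15 without TE replicate 4 (adjusted p = 0.398 by edgeR). The C mice had 9.51 to 11.3 CPM, between the T and the TE mice apart from TE replicate 1 at the level of the highest C mouse.

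Gbp4 (chr5:105263633-105287609, minus strand) was at 60.6, 72.0, 57.3 and 64.6 CPM in the TE mice and at 43.5, 36.3, 38.7 and 34.5 CPM in the T mice, a fold of 1.66. Tgtp1 (chr11:48876154-48884999, minus strand), a T-cell-specific GTPase by name that many cells make under interferon, was at 5.02, 9.95, 7.46 and 9.85 CPM in TE and at 3.43, 4.73, 3.45 and 3.48 CPM in T, a fold of 2.14. Igtp (chr11:58089840-58098417, plus strand), an immunity-related GTPase, was at 16.8, 17.9, 14 and 14.6 CPM in TE and at 12.9, 11.6, 10.1 and 10.6 CPM in T. In each of these 3 genes every TE mouse was above every T mouse, and the unadjusted p-value was below 0.001 with and without TE replicate 4, while the adjusted p-value from edgeR was between 0.516 and 0.701. For a single gene the exact permutation test of 4 against 4 mice (two-sided) cannot go below p = 0.0286. That is the value it gave for Gbp7, Gbp5, Gbp4, Tgtp1 and Igtp. Any gene whose groups do not overlap must get this value, and 183 genes above and 197 genes below had such groups. These genes were among those with the smallest p-values from edgeR, so the exact test adds no support.

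**Figure D1:**
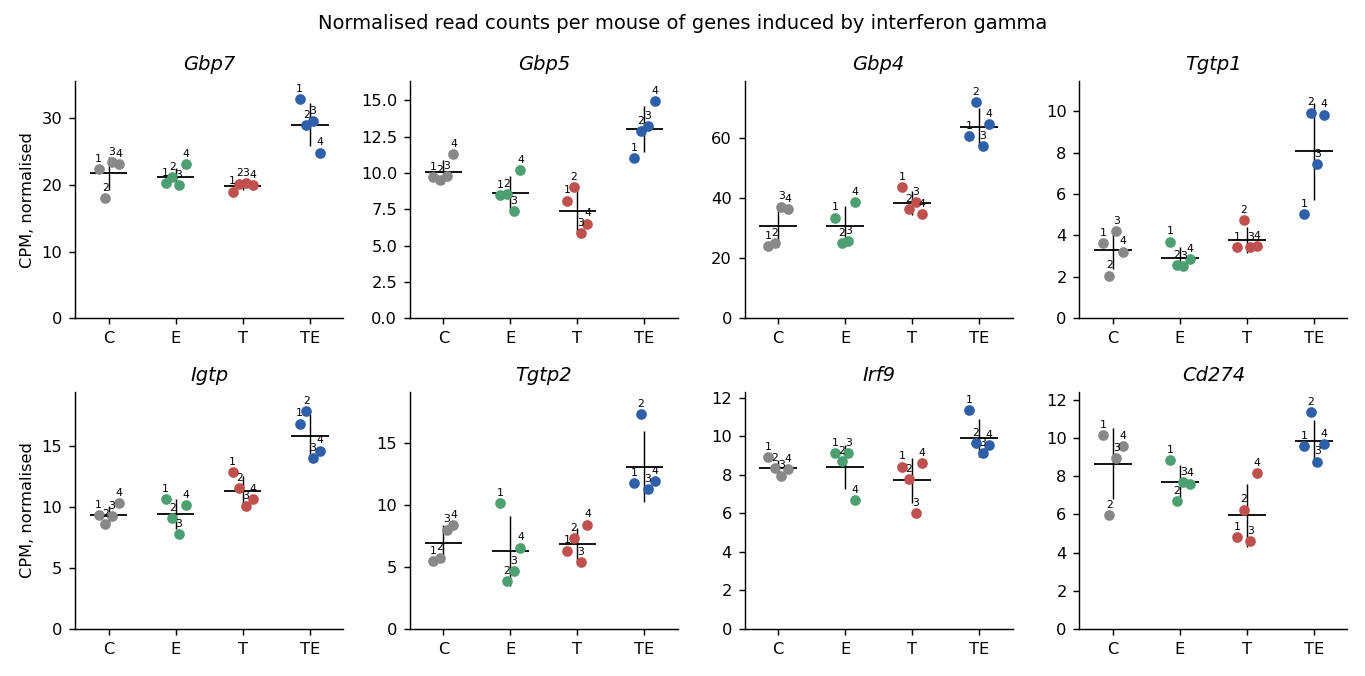
Normalised CPM (vertical axes, from 0) of 8 genes induced by interferon gamma in the C, E, T and TE groups. Each point is 1 mouse with its replicate number, horizontal lines are group means and vertical lines are ± 1 SD (n = 4). For Gbp7 the TE mice sit between 24.8 and 32.8 CPM and the T mice between 19.0 and 20.3 CPM, and in all 8 panels every TE mouse is above every T mouse.

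The other tested members repeated this order less sharply. Tgtp2, Iigp1, Gbp2b, Gbp9 and Gm4951 also had every TE mouse above every T mouse, which makes 10 of the 19 tested members, against 1.24% of all genes. Gbp3, Irgm2, Gbp2 and Gbp6 were higher in TE at an unadjusted p-value under 0.05 with overlapping groups. In Gbp2 the overlap came from T replicate 3 at 15.7 CPM, since the other T mice had 10.4 to 11.6 CPM and the TE mice 14.4 to 19.3 CPM. F830016B08Rik, Ifi47, Gvin1 and Irgm1 were not under that p-value (log2 fold changes of 0.56, 0.56, 0.51 and 0.08). Gbp10 was the 1 member that was lower on average, at 33.9 to 90.0 CPM in TE and 39.1 to 86.7 CPM in T (log2 fold change of -0.16 ± 0.25), and it was 0.05 higher on the log2 scale without TE replicate 4. Gbp8 was too low to be tested. Reads of the Gbp and Tgtp families can be shared between near-identical copies, so the split between neighbours such as Tgtp1 and Tgtp2 is uncertain.

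The promoters of these genes were searched for 2 letter patterns of interferon signaling. The members were listed as known targets of interferon gamma, so finding such patterns in them is no independent support. The promoters of 11 of the 20 members were found in RefSeq (250 bases before to 50 bases after each start site), and 6 of these hold both letter patterns searched in 1 promoter. The first is TTCNNNGAA, the pattern of the gamma-activated site of interferon signaling, which reads the same on both strands. The second, GAAANNGAA, on either strand, is the core of the interferon-stimulated response element that Irf factors bind. The 250 bases before the start sites of the 2 Gbp genes with the smallest p-values are printed 5′ to 3′ on the plus strand (chr3:142202445-142202694 and chr3:142235847-142236096, GRCm39, placed by an exact match of the RefSeq sequence), with the matches to either pattern in capitals.
Gbp5: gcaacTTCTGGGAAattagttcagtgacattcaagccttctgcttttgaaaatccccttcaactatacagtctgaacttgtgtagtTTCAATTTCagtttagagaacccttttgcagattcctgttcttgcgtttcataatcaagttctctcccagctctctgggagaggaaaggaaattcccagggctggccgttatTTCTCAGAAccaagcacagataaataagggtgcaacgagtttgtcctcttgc
Gbp7: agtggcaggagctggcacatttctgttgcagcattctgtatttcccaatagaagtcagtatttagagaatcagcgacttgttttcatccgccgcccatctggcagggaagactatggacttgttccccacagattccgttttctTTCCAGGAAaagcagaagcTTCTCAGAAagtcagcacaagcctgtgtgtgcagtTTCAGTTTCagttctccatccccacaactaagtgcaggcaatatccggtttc
Gbp5 has TTCNNNGAA at 245 and 52 bases before the start, and Gbp7 has it at 106 and 87 bases before the start. Both have GAAANNGAA on the minus strand, at 164 bases before the start in Gbp5 and at 52 bases before it in Gbp7. The 60 bases around both patterns in 4 immunity-related GTPases are set side by side, each on its gene's strand (Igtp chr11:58090322-58090381 and Irgm2 chr11:58105713-58105772, plus strand; Tgtp1 chr11:48883117-48883176 and Tgtp2 chr11:48955076-48955135, minus strand; GRCm39).
Igtp: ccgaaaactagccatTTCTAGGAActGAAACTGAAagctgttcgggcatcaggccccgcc
Irgm2: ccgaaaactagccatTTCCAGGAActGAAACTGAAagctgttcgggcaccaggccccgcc
Tgtp1: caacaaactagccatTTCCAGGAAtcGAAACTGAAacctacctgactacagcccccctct
Tgtp2: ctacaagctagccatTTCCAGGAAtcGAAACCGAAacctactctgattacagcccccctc
In these 4 genes the second pattern begins 11 bases after the first, and Igtp and Irgm2 are near-identical over this stretch. The patterns do not overlap in any of the 6 promoters. For Gbp5, Gbp7, Igtp and Tgtp1 the RefSeq start sites lie inside the gene bounds given above, which come from GENCODE. Of the 11 members, 6 hold TTCNNNGAA and 10 hold GAAANNGAA. Counted in the same way, by gene, 9.55% of the 27025 genes in that table hold TTCNNNGAA, 9.76% hold GAAANNGAA and 1.24% hold both in 1 promoter. Of its 32851 promoters, 8.3%, 8.56% and 1.07% do. These matches are letters in a window and say nothing about binding in this muscle.

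The list of other interferon pathway genes had a smaller median difference. Of 32 tested genes of the interferon signaling and antiviral list, 31 were higher in TE, 8 of them at an unadjusted p-value under 0.05 (against 2.87% of all genes), and the median log2 fold change was 0.21. Among the 8 were Stat2, Irf9 and Parp14, the chemokine gene Cxcl9, the feedback inhibitor Socs1, the kinase gene Jak1 and the tetherin gene Bst2. The count was 6 without TE replicate 4 and ranged from 5 (without T replicate 4 or TE replicate 2) to 11 (without TE replicate 3) when 1 mouse was left out.

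Irf9, which with Stat2 forms a transcription factor of interferon signaling, was at 11.4, 9.64, 9.12 and 9.53 CPM in TE and at 8.42, 7.79, 6.03 and 8.59 CPM in T. Every TE mouse was above every T mouse (log2 fold change of 0.36 ± 0.12, unadjusted p = 0.0096). Parp14 also had groups that did not overlap, by a narrow gap (21.0 to 25.2 CPM in TE and 16.7 to 20.9 CPM in T). Socs1 was carried by TE replicate 2, at 5.29 CPM against 0.543 to 1.26 CPM in the other TE mice, and Cxcl9 by TE replicate 4, at 2.49 CPM against 0.362 to 0.527 CPM. The receptor genes had log2 fold changes of -0.09 ± 0.10 for Ifngr1 and 0.00 ± 0.09 for Ifngr2. The transcript of interferon gamma itself, Ifng, had 1 count in TE replicate 1 and 0 counts in the other 7 tumor-bearing mice, which is under the limit of 3 counts, so it was not detectable at this depth.

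In the MHC class I and immunoproteasome list, 19 of 20 tested genes were higher in TE, at a median log2 fold change of 0.24. At an unadjusted p-value under 0.05, 4 were higher (20%, against 2.87% of all genes). H2-K1, a classical class I heavy chain, was at 58.5, 68.1, 68.5 and 77.5 CPM in TE and at 54.1, 56.7, 52.4 and 42.9 CPM in T. B2m, its light chain, was at 255, 260, 298 and 351 CPM in TE and at 231, 251, 244 and 187 CPM in T. Neither gene had overlapping groups, and in both TE replicate 4 was the highest. Tap1, the peptide transporter, and H2-Q4 were the other 2. The number under that p-value depended on single mice, since it was 2 without TE replicate 4 and 9 without T replicate 2 or without TE replicate 1. Cd274, which encodes the checkpoint ligand PD-L1, was looked up after its values were seen. It was at 9.56, 11.4, 8.76 and 9.66 CPM in TE and at 4.79, 6.25, 4.61 and 8.15 CPM in T, with no overlap (log2 fold change of 0.73 ± 0.18, adjusted p = 0.693 by edgeR). The C mice had 5.95 to 10.1 CPM of Cd274, a range that reached into both tumor-bearing groups.

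Between the trained and untrained tumor-free mice, the GTPases were not shifted on balance. Their median log2 fold change between E and C was -0.01, with Gbp5 at -0.22 and Gbp10 at 0.92. The interaction of tumor and training, which tests this difference in edgeR, had an unadjusted p-value under 0.05 in 12 of the 19 GTPases, against 9.21% of all genes tested. For Gbp5 the interaction was 1.05 ± 0.19 on the log2 scale, and for Gbp7 it was 0.59 ± 0.13, but the adjusted p-value was 0.389 in both, as no gene passed the adjusted threshold for the interaction (1358 genes at an unadjusted p-value under 0.05 in edgeR, and 20 genes at an adjusted p-value under 0.05 in DESeq2). In TE replicates 1 to 3 the summed level of the GTPases was 468 to 559 CPM, and in TE replicate 4 it was 425 CPM, the lowest of the TE mice, against 325 to 411 CPM in T. In TE replicates 1 to 3 the B cell and T cell lists stayed at the level of the T mice. Single GTPases differed in order, as TE replicate 4 was the lowest TE mouse for Gbp7 and the highest for Gbp5. Whether lymphoid cells had a part in the GTPase level was not tested.

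Further genes among the 10 with the smallest p-values also had groups that did not overlap. Car3, a carbonic anhydrase that is abundant in slow fibres and fat, was at 742 to 807 CPM in TE and at 900.2 to 2090.3 CPM in T, with T replicate 4 the highest (log2 fold change of -0.82 ± 0.19). Fxyd6, a regulator of the sodium pump, was at 59.0 to 62.6 CPM in TE and at 71.8 to 96.4 CPM in T. Ltf, the lactoferrin of neutrophil granules, had 1 to 7 counts in the TE mice and 11 to 51 counts in the T mice, and 2 or fewer in each tumor-free mouse. Among the 10 genes with the smallest p-values without TE replicate 4 were Eefsec, a factor of selenoprotein synthesis (4.59 to 4.88 CPM in TE replicates 1 to 3, 6.32 CPM in replicate 4 and 6.72 to 7.13 CPM in T), and C2cd2l, a lipid transfer protein (14.9 to 18.6 CPM in TE and 12.7 to 13.9 CPM in T). Sh3rf3 was at 0.535 to 1.22 CPM in TE and at 0.276 to 0.474 CPM in T, again without overlap. Cyfip2, a part of the actin-regulating WAVE complex, was at 5.41 to 8.23 CPM in TE replicates 1 to 3, at 13.1 CPM in replicate 4 and at 10.8 to 15.8 CPM in T. Entpd4b, an apyrase gene, showed the same split, with 5.49 to 13.3 CPM in TE replicates 1 to 3 and 1.28 CPM in replicate 4, beside 0.632 to 1.30 CPM in T and 0.810 to 7.09 CPM in the tumor-free mice.

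Among genes at an unadjusted p-value under 0.05 both with and without TE replicate 4, most of the 5 highest and 5 lowest log2 fold changes lay in genes with few reads. Ucp1, the uncoupling protein of brown and beige fat, had 14, 64, 30 and 2 counts in TE replicates 1 to 4 and 0, 0, 0 and 4 counts in T, but also 151 counts in 1 of the E mice. Ces2c, a carboxylesterase, had 176, 41, 22 and 16 counts in TE and 2 to 11 counts in T. The C mice had 17 to 33 counts, so the T group lay below them. The E mice had 20, 96, 1 and 30 counts, so E replicate 3 lay below every T mouse. Crmp1 had 6 to 15 counts in TE and 1 to 6 in T, and Gm4013 had 4 to 10 in TE and 0 to 4 in T. In the other direction Irx5 had 0, 0, 6 and 0 counts in TE and 18, 2, 28 and 22 counts in T. Msln, the mesothelin gene, was carried by T replicate 4 (77 counts, beside 2 to 7 counts in every other tumor-bearing mouse). The gene 9230110K08Rik had 0 to 3 counts in TE and 4 to 15 in T.

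Lymphoid genes were high in TE replicate 4. The summed level of the B cell list was 96.7 CPM in that mouse and 0.837 to 2.24 CPM in the other 7 tumor-bearing mice. The T cell list was at 56.7 CPM, against 2.02 to 2.95 CPM, and the lymph node stroma and vessel list at 128 CPM, against 6.12 to 11.9 CPM. Pax5, the factor that sets B cell identity, had 280 counts in TE replicate 4 and 0 to 4 in each of the other 7 mice. Glycam1, a mucin of lymph node high endothelial venules, had 1023 counts there against 0 in all of the others. Cd3e, a chain of the T cell receptor complex, had 123 counts, against 6 at most. Of the tested genes, 9 of 10 of the B cell list, 10 of 16 of the T cell list and 7 of 10 of the lymph node list were higher in TE at an unadjusted p-value under 0.05 with all mice, and 0 were without TE replicate 4.

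**Figure D2:**
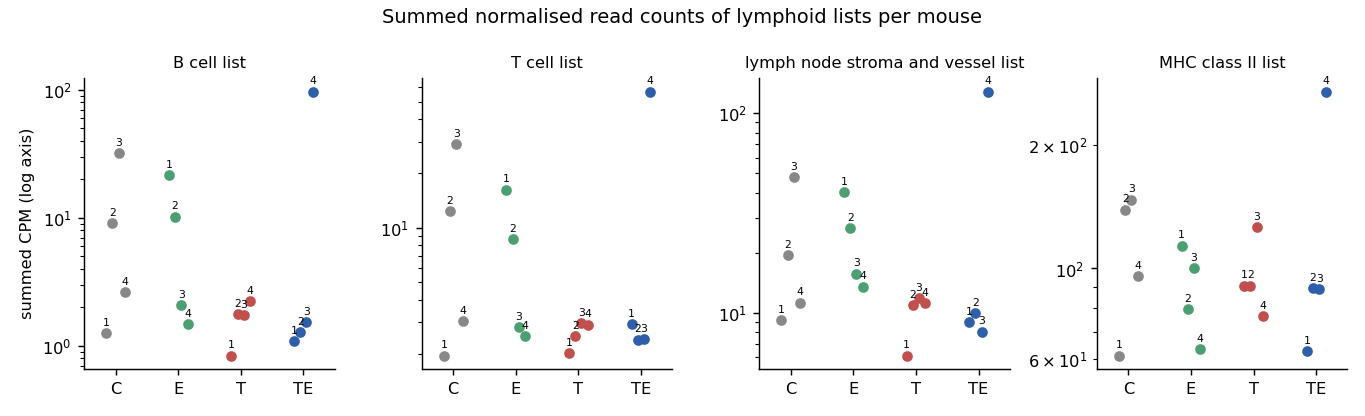
Summed normalised CPM (vertical axes, logarithmic) of the B cell, T cell, lymph node and MHC class II lists. Each point is 1 mouse of the C, E, T or TE group with its replicate number. TE replicate 4 is the highest mouse in all 4 panels, and for the B cell list it is at 96.7 CPM while the other TE mice are at 1.09 to 1.53 CPM.

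Tumor-free mice also differed in these genes, up to 32.0 CPM of the B cell list in C replicate 3 and 21.4 CPM in E replicate 1. The MHC class II list followed the same mouse, at 270.3 CPM in TE replicate 4 and 62.8 to 126 CPM in the other 7. Ciita, the master regulator of class II genes, was at 7.17 CPM there and at 0.276 to 0.691 CPM in the others, and its log2 fold change went from 2.00 to -0.22 without that mouse. The macrophage list was at 342 CPM in TE replicate 4, 297 CPM in T replicate 3, 280 CPM in T replicate 4 and 141 to 179 CPM in the other 5 mice. Globin transcripts were also highest in TE replicate 4 (Hbb-bt at 95.8 CPM, against 48.2 to 50.2 CPM in the other TE mice and 40.6 to 47.3 CPM in T). The part of these cells in the results for other genes was not tested beyond leaving out that mouse.

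Slow-fibre genes were lower in TE on average, and this followed 2 T mice in which they were high. All 11 tested genes of the slow fibre list were lower on average in TE, 10 of them at an unadjusted p-value under 0.05 (against 3.01% of all genes). The median log2 fold change was -0.78. The summed level of the list was 1170 to 1500 CPM in TE, and 1473, 1338, 2504 and 3477 CPM in T replicates 1 to 4. T replicates 1 and 2 thus lay within the range of the TE mice, and T replicates 3 and 4 lay above it. In every gene of the list the groups overlapped. C replicate 4, a tumor-free untrained mouse, had 2534 CPM, while the other tumor-free mice had 1043 to 1845 CPM. The count was 6 without TE replicate 4 and 2 without T replicate 4, and it was 0 without both T replicates 3 and 4, when the median was -0.10. With sample quality weights in limma-voom it was 3, and in the robust fit of edgeR it was 6.

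Tnni1, slow troponin I, had the largest average difference of the list, at 42.4, 40.9, 27.5 and 36.5 CPM in TE and 48.7, 31.8, 96.1 and 145 CPM in T (log2 fold change of -1.13 ± 0.38). Myh7, the slow myosin heavy chain, was at 183, 165, 135 and 108 CPM in TE and at 172, 133, 317 and 519 CPM in T. Its share of the summed FPKM of 4 adult myosin heavy chain genes was 0.292% to 0.458% in TE and 0.310% to 1.18% in T. The gastrocnemius of all 8 mice was a fast muscle by this measure, as Myh4, the fastest myosin, took 78.3% to 87.7%. Myl2, Casq2, Myoz2, Tnnt1, Tnnc1 and Atp2a2, which serve contraction and calcium handling in slow fibres, showed the same pattern of T replicates 3 and 4 above the rest. Myh2, the myosin of fast oxidative fibres, was at 1911 to 2461 CPM in TE and at 2173 to 3466 CPM in T (log2 fold change of -0.39 ± 0.13, unadjusted p = 0.0077).

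**Figure D3:**
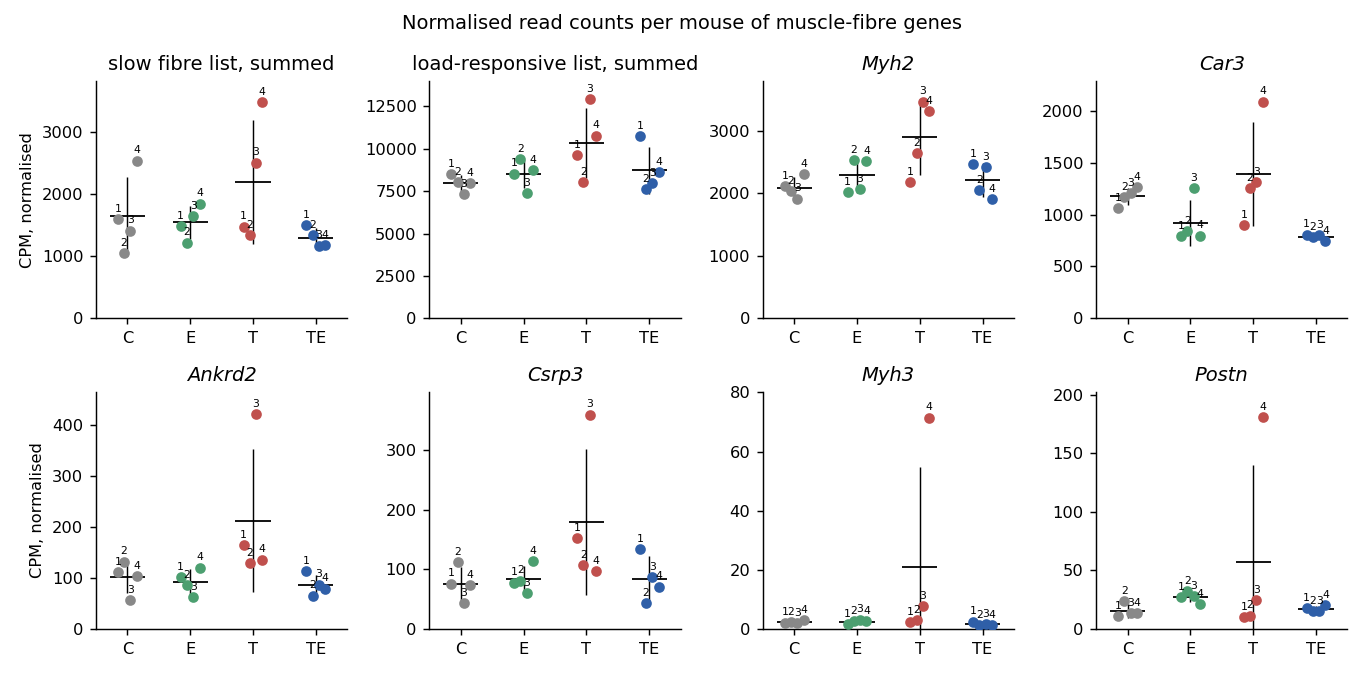
Normalised CPM (vertical axes, from 0) of the slow fibre and load-responsive lists, summed, and of 6 genes of muscle fibres and matrix. Each point is 1 mouse with its replicate number, horizontal lines are group means and vertical lines are ± 1 SD (n = 4). T replicate 4 is highest for the slow fibre list (3477 CPM), Car3, Myh3 (71.5 CPM) and Postn (181 CPM), and T replicate 3 for the load-responsive list, Myh2, Ankrd2 (420 CPM) and Csrp3.

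Genes that respond to stretch and load showed a related pattern with another mouse in front. In the load-responsive list 11 of 12 genes were lower in TE, with a median log2 fold change of -0.33. At an unadjusted p-value under 0.05, 4 were lower (Ankrd2, Nrap, Flnc and Csrp3), or 33.3% against 3.01% of all genes. Ankrd2, an ankyrin repeat protein of stretched muscle, was at 113, 65.3, 86.7 and 78.8 CPM in TE and at 164, 128, 420 and 136 CPM in T, without overlap. Csrp3, the muscle LIM protein of the Z-disc, was at 134, 42.7, 87.4 and 71.2 CPM in TE and at 152, 107, 360 and 97.6 CPM in T. T replicate 3 was the highest mouse in both, and without it the count was 2, whereas it was 7 without T replicate 2, 10 without TE replicate 1 and again 4 without TE replicate 4. In the sarcomere and Z-disc list 5 of 20 genes were lower at that p-value (25%) and 0 higher. Among these, Lmod2, an actin filament nucleator, was at 114 to 140 CPM in TE and 137 to 217 CPM in T. Actn2, an alpha-actinin of the Z-disc, was at 769 to 1130 CPM in TE and 992 to 1537 CPM in T. The count for that list was 8 without TE replicate 1 and 5 without TE replicate 4. In the fast fibre list 0 of 14 genes were higher and 1 was lower at that p-value, Myh2 itself, and the median log2 fold change was 0.08.

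Embryonic myosin, Myh3, which is made in newly formed and regenerating fibres, was at 2.50, 1.37, 1.58 and 1.39 CPM in TE and at 2.25, 2.93, 7.61 and 71.5 CPM in T. Most of the average difference thus came from T replicate 4, while the tumor-free mice had 1.52 to 3.14 CPM. Periostin (Postn), a matrix protein of remodelling tissue, was at 181 CPM in the same mouse and at 10.3 to 24.4 CPM in the other T mice, against 15 to 20.1 CPM in TE. Without T replicate 4 the log2 fold change of Postn went from -1.73 to 0.16. In the satellite cell and myogenic list 0 of 12 genes were higher and 2 were lower at an unadjusted p-value under 0.05. These were Myh3 and the cadherin gene Cdh15, or 16.7% of the list against 3.01% of all genes. Without TE replicate 1, 4 genes of that list were lower.

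Matrix genes had unlike log2 fold changes of training with and without a tumor, although no interaction passed the adjusted threshold in edgeR with all mice. Between TE and T, the median log2 fold change of 27 collagen and matrix genes was -0.12. At an unadjusted p-value under 0.05, 4 were lower (Loxl1, Postn, Col14a1 and Mmp14), or 14.8% against 3.01% of all genes. At that p-value 1 was higher, Timp3, an inhibitor of matrix proteases (3.7%, against 2.87% of all genes). Between E and C the median was 0.58. The interaction had an unadjusted p-value under 0.05 in 22 of the 27 genes, against 9.21% of all genes tested, and in 8 of 10 tendon genes. Mmp14, a membrane-bound collagenase, was at 20.3 to 21.1 CPM in all 4 TE mice and at 23.5, 17.4, 28.7 and 37.9 CPM in T (log2 fold change of -0.38 ± 0.15), and its log2 fold change between E and C was 0.75. Its interaction was -1.13 ± 0.22 on the log2 scale (adjusted p = 0.389 by edgeR), and Mmp14 was the 1 gene to pass the adjusted threshold for the interaction without T replicate 2. Fmod, the tendon proteoglycan fibromodulin, had a log2 fold change of 0.00 between TE and T and of 1.99 between E and C. T replicates 3 and 4 had the highest summed level of the collagen list (3729 and 3583 CPM, against 2519 and 2539 CPM in T replicates 1 and 2 and 2840 to 3236 CPM in TE). The 4 genes lower in TE became 1 without T replicate 3, 0 without T replicate 4 and 8 without T replicate 1 or without T replicate 2, and it was 4 without TE replicate 4. Without both T replicates 3 and 4, 7 genes were higher, 0 were lower and the median was 0.22.

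**Figure D4:**
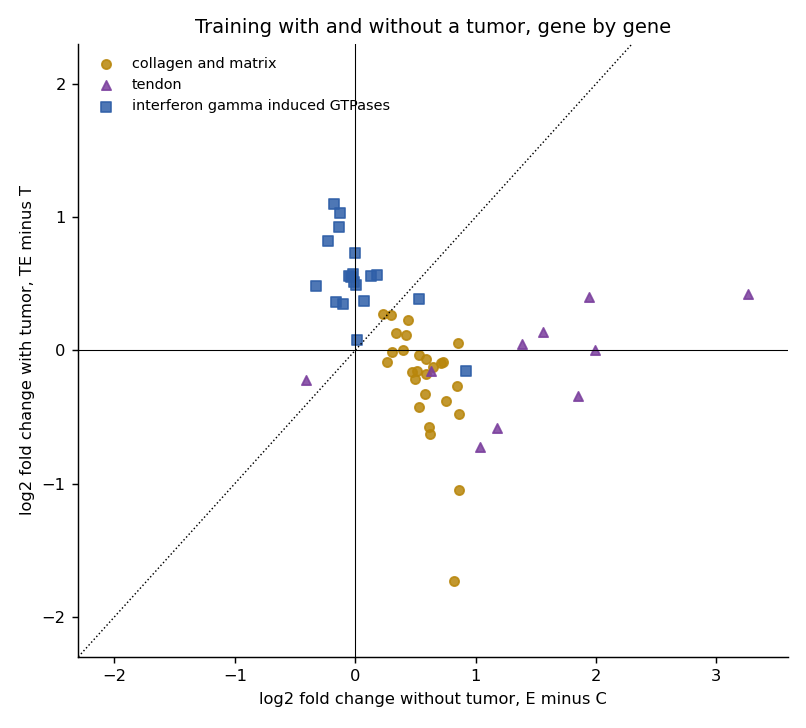
Log2 fold change of training without a tumor (E minus C, horizontal axis) and with a tumor (TE minus T, vertical axis) for each tested gene of the collagen and matrix list (circles), the tendon list (triangles) and the interferon gamma induced GTPases (squares), 4 mice per group. On the dotted line both changes are equal. The collagen and matrix genes sit to the right with a median of 0.58 on the horizontal and -0.12 on the vertical axis, and the GTPases sit near 0 on the horizontal axis with a median of 0.55 on the vertical axis.

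Inflammatory cell genes other than lymphocytes were higher in part of the T mice. Ngp, a granule protein of neutrophil precursors, was at 0.570, 0.139, 0.166 and 0.0803 CPM in TE and at 0.404, 0.83, 0.868 and 2.87 CPM in T. Together with Ltf it made up the 2 of 10 tested neutrophil genes that were lower at an unadjusted p-value under 0.05. That was 20%, against 3.01% of all genes. S100a8 and S100a9, which neutrophils hold in large amounts, had log2 fold changes of -0.61 and -0.46 and were not under that p-value. Both were highest in T replicate 4 (11.0 and 24.2 CPM), and without that mouse 6 of 10 neutrophil genes were higher in TE and the median of the list went from -0.50 to 0.19. Of 15 macrophage genes 13 were lower on average in TE and 1 was so at that p-value, the complement gene C1qc, at 5.70 to 8.27 CPM in TE and at 9.35, 7.88, 16.8 and 15.9 CPM in T. That count was 0 without T replicate 3 or without T replicate 4 and 3 without T replicate 1. The direction of the macrophage list depended on the mice with the highest sums, T replicates 3 and 4 and TE replicate 4. Without TE replicate 4 all 15 genes were lower (median of -0.34), and 13 were lower when T replicate 3 or T replicate 4 was left out as well (medians of -0.20 and -0.23). Without T replicates 3 and 4 but with TE replicate 4, 14 of the 15 were higher (median of 0.34). With TE replicate 4 left out, 2 neutrophil genes and 1 macrophage gene were lower at that p-value. Stat3, the factor through which interleukin-6 acts on muscle, was at 77.7 to 81.5 CPM in TE and at 98.3, 75.6, 110 and 94.9 CPM in T (log2 fold change of -0.26 ± 0.09, unadjusted p = 0.0087). T replicate 2 lay below all TE mice, and the tumor-free mice had 58.2 to 69 CPM.

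Of 23 atrophy ligase and FoxO target genes, 19 were lower in TE on average. At an unadjusted p-value under 0.05, 2 were lower (8.7%, against 3.01% of all genes) and 0 were higher. They were Sesn1, which restrains growth signaling (22.1 to 26.7 CPM in TE and 24.7 to 37.5 CPM in T), and Foxo3 (33.5 to 39.5 CPM in TE and 36.7 to 49.3 CPM in T). The count of lower genes in that list was 5 without TE replicate 3, 4 without T replicate 4 and 1 without T replicate 1, T replicate 3 or TE replicate 2, and it stayed at 2 without TE replicate 4. The ubiquitin ligase genes Fbxo32 (atrogin-1) and Trim63 (MuRF1), added to the named genes after their values were seen, had log2 fold changes of -0.16 ± 0.37 and -0.01 ± 0.24. Fbxo32 was at 282, 790, 979 and 433 CPM in TE and at 576, 473, 1300 and 421 CPM in T, so the ranges of the groups covered each other. In the growth factor list, Gdf11 was higher (11.4 to 13.9 CPM in TE and 9.61 to 12.0 CPM in T) and Akt2, a kinase of insulin signaling, was lower (156 to 171 CPM in TE and 177 to 187 CPM in T, without overlap) at that p-value. Each was 1 of 25 genes tested, or 4%. The list had 5 genes higher without TE replicate 4 and 5 genes lower without T replicate 2.

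At an unadjusted p-value under 0.05, 8% of 25 endurance training genes and 12.9% of 31 fatty acid genes were lower in TE. The share over all genes was 3.01%. On average, 17 of the 25 and 25 of the 31 genes were lower in TE. In the endurance training list Esrrg, a nuclear receptor that drives oxidative genes, was at 22.6, 17.5, 20.5 and 14.9 CPM in TE and at 29.9, 23.6, 28.9 and 22.6 CPM in T, and Esrrb was the other of 2 genes lower at an unadjusted p-value under 0.05, a count that was 4 without TE replicate 3 and 1 without T replicate 1 or TE replicate 4. Ppargc1a, the coactivator best known for its response to endurance training, was at 43.7, 44.8, 48.9 and 32.8 CPM in TE and at 37.0 to 41.7 CPM in T. Its log2 fold change was 0.08 ± 0.10 with all mice and 0.20 ± 0.09 without TE replicate 4. In the fatty acid list 4 of 31 genes were lower and 0 higher, Hadhb and Hadha (both subunits of the trifunctional protein of beta-oxidation), Slc27a1 and Decr1, with log2 fold changes between -0.12 and -0.30. That count was 2 without TE replicate 2, 3 or 4 and 1 without T replicate 1 or without T replicate 4. The median log2 fold change was 0.02 over 49 complex I genes, 0.00 over 42 genes of complexes II to V, 0.01 over the 13 genes of the mitochondrial genome, -0.01 over 30 glycolysis and glycogen genes and 0.00 over 76 cytosolic ribosomal protein genes. In the lipogenesis list 1 of 21 genes was higher (4.76%) and 2 were lower (9.52%) at that p-value, and the median was 0.14. Without T replicate 4 the list had 5 genes higher, 1 lower and a median of 0.29, and with TE replicate 4 left out it had 2 higher, 0 lower and a median of 0.15. Elovl6, which lengthens fatty acids in lipid synthesis, was at 2.99, 15.4, 8.29 and 2.44 CPM in TE and 0.940 to 4.59 CPM in T, and 15.8 CPM in 1 of the E mice.

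**Figure D5:**
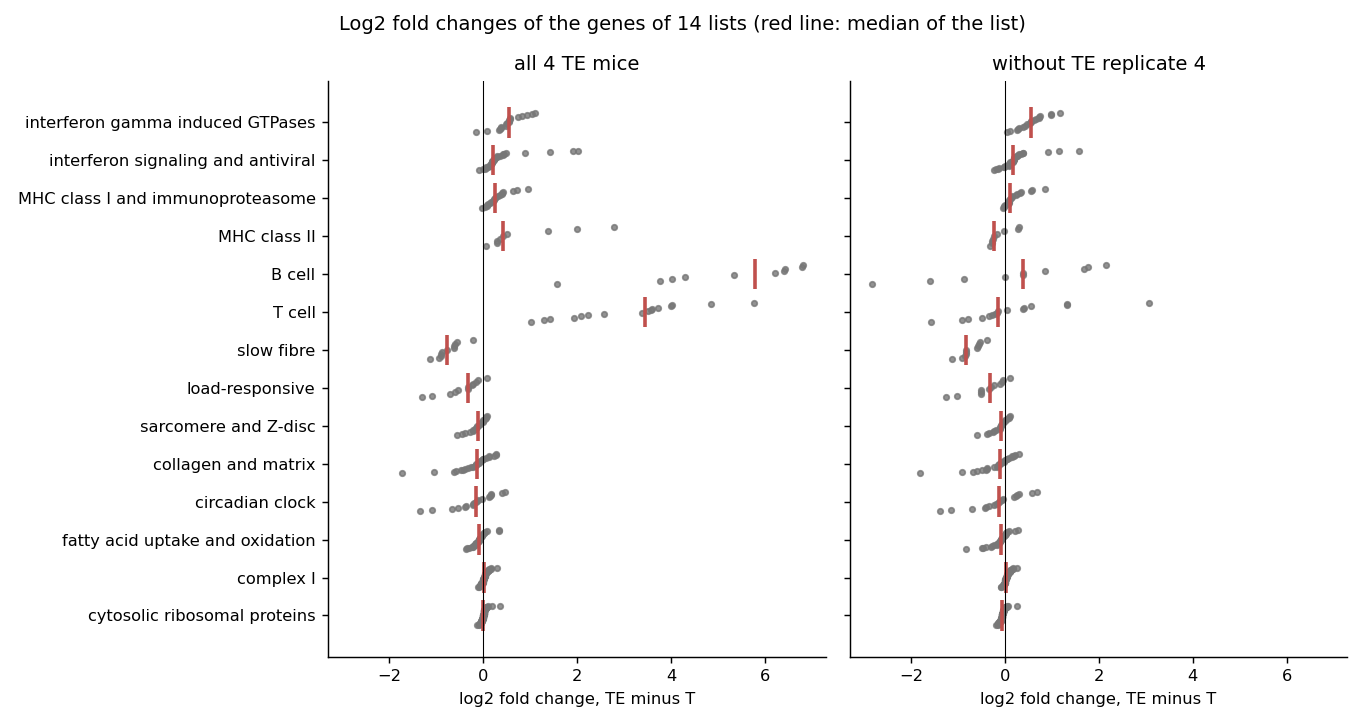
Log2 fold change (TE minus T, horizontal axis) of each tested gene (points) of 14 gene lists (rows), with all 4 TE mice on the left and without TE replicate 4 on the right. Red lines are list medians. The median of the interferon gamma induced GTPases is 0.55 in both panels and that of the slow fibre list is -0.78 and -0.82, while that of the B cell list goes from 5.78 to 0.39.

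In the circadian clock list 4 of 19 genes were lower in TE at an unadjusted p-value under 0.05 (21.1%, against 3.01% of all genes). These were Per1, Cry2, Ciart and Dbp, with log2 fold changes of -0.67, -0.38, -1.34 and -1.09, and 0 were higher. Per1 was at 27.5 to 31.0 CPM in TE and at 29.4, 71.9, 42.3 and 42.0 CPM in T, and Dbp, an output gene of the clock, was at 17.1 to 35.4 CPM in TE and at 55.3, 122, 15.3 and 31.8 CPM in T. Of the 8 tumor-bearing mice, T replicate 2 was highest in all 4 genes, and without it the count was 1. It was 2 without T replicate 1 or TE replicate 3 and 7 without T replicate 3. With TE replicate 4 left out, 3 clock genes were lower and 2 were higher. The labels give no hour of tissue collection.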

How the data were processed

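RNA sequencing of the gastrocnemius of 16 mice (4 per group) was used, with groups and replicate numbers as the labels give them. Per the submitters' processing notes the authors used fastp 0.20.1, HISAT2 2.1.0, HTSeq 0.11.2 and DESeq2 with GRCm39. The authors deposited raw counts per gene and FPKM values. In 16037 genes the FPKM were checked to follow from the counts, scaled per length and per library. The annotation release and strand setting are not given in the sources used here, so overlapping genes and near-identical copies are uncertain. The labels name version V6 of the library kit and the methods V5. The tables held 0 columns of other samples.

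Of 35415 genes, 23837 had a count, and filterByExpr kept 14749. Libraries were scaled by TMM, and genes were tested with the quasi-likelihood test of edgeR 4.0.16 (limma 3.58.1, R 4.3.3) with 1 coefficient per group over all 16 libraries, Benjamini-Hochberg adjustment and two-sided p-values. DEGs were genes with at least a 2-fold change that passed 0.05 after adjustment. Library totals limit precision to 3 counts per library, and intervals of counting error do not cover PCR copies. Each library is 1 mouse, and p-values measure the spread between these mice. Replicates of a group differed by far more than counting noise (chi-square per degree of freedom of 19.6 to 65.8).

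Named genes are the 10 with the smallest p-value with and without TE replicate 4, the 5 highest and 5 lowest log2 fold changes among genes at an unadjusted p-value under 0.05 in both, and, for each of 38 lists, up to 4 genes with the smallest p-value and the most abundant gene. Other genes were added after their values were seen. Results of some genes are not reported here. The comparison, the markers and the lists were chosen with earlier results of these data known. Gene positions come from GENCODE vM39, and promoter sequences from RefSeq (GRCm38.p6), placed on GRCm39 by exact match. Same-numbered mice of T and TE are different animals, and the numbers were not used as pairs. Alternatives were DESeq2 1.42.0, its size factors, no filter, only T and TE in the fit, a robust fit, the replicate number as a block, limma-voom weighting the samples, limma-trend on log2(FPKM + 1) and log2(FPKM + 0.1), a fold change of 1.5, and each mouse left out. Counts per gene list under these alternatives, and fits without 2 of T replicate 3, T replicate 4 and TE replicate 4, were added after seeing the data. Python 3.11.15 and matplotlib 3.10.9 drew the figures.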

Additional observations from a re-analysis of the deposited data

Results flagged for a closer look

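Values of single mice that lay far from the other 3 of their group were screened with Dixon's criterion in the T and TE groups, for the named genes and the summed levels of gene lists. This criterion flags about 1 in 20 groups by chance, and it found 30 of 218 groups. Many of the genes screened vary together, so these are not separate findings, and no explanation was tested.

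TE replicate 4 was the high mouse in 12 of them. Its values were 96.7 CPM for the summed B cell list (next mouse 1.53 CPM), 56.7 CPM for the T cell list (2.93 CPM) and 128 CPM for the lymph node list (10 CPM). Glycam1 at 27.4 CPM, Cd3e at 3.29 CPM, Pax5 at 7.49 CPM, H2-Ob at 5.22 CPM, Ciita at 7.17 CPM and Hbb-bt at 95.8 CPM. The interferon-induced genes Cxcl9 (2.49 CPM) and Gbp2 (19.3 CPM) and the gene Eefsec (6.32 CPM) were also highest there.

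T replicate 4 stood out for Myh3 (71.5 CPM, next mouse 7.61 CPM), Postn (181 CPM, next 24.4 CPM), Msln (2.13 CPM), Crmp1 (0.166 CPM) and Ucp1 (0.111 CPM). T replicate 3 stood out for Ankrd2 (420 CPM, next 164 CPM) and Flnc (1320 CPM, next 777 CPM). T replicate 2 stood out for Tgtp1 (4.73 CPM) and Pax5 (0.0553 CPM), but this Pax5 value is under the limit of 3 counts. T replicate 1 stood out for Socs2 (19.6 CPM), H2-Ob (0.462 CPM) and a low sum of the lymph node list (6.12 CPM). In the TE group, replicate 1 stood out for Ces2c (4.78 CPM), Ltf (0.190 CPM) and a low level of Gdf11 (11.4 CPM), replicate 2 for Socs1 (5.29 CPM) and Tgtp2 (17.4 CPM), and replicate 3 for Irx5 (0.166 CPM).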

How the results depend on the processing

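The absence of genes at an adjusted p-value under 0.05 between TE and T held in edgeR with other size factors, with only T and TE in the fit, in the robust fit, in limma-voom and on the FPKM scales. It did not hold with DESeq2 (7 genes, 4 of them DEGs) or with no filter on low counts (3 genes, 1 of them a DEG), when 1318 genes were under an unadjusted p-value of 0.05 against 867. Leaving out 1 mouse gave 0 to 1 genes (1 DEG without T replicate 1, and Gbp7 without TE replicate 4) and 763 to 1068 genes at an unadjusted p-value under 0.05. Without TE replicate 4 the 1 gene, Gbp7, was lost with DESeq2's size factors, with limma-voom, under the replicate block and on leaving out any further mouse (0 genes each), whereas DESeq2 gave 4 genes and no filter gave 2. A further mouse left out gave 621 to 934 genes at an unadjusted p-value under 0.05. The interaction had 20 genes in DESeq2 and 0 to 1 genes (Mmp14 without T replicate 2) on leaving out a mouse. With the replicate block 0 genes passed with all mice and 856 were under an unadjusted p-value of 0.05. Deviations of same-numbered T and TE mice correlated at 0.0551, 0.107, 0.0945 and 0.0976, and not every mouse correlated best with its own number.

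Of 1445 log2 fold changes of 97 named genes under the alternatives, 1424 kept their direction and side of the threshold and 9 passed it in the same direction. Those that turned were Postn without T replicate 4 (0.16, range -2.08 to 0.16), Gbp10 without TE replicate 4 (0.046, range -0.42 to 0.046), Ciita (-0.22, range -0.22 to 2.36) and Glycam1 (0, range 0 to 11.39) without TE replicate 4, Fbxo32 in limma-voom (0.020) and without single mice (-0.46 to 0.35), and Trim63 under the replicate block (0.017), in limma-voom (0.16) and without single mice (-0.19 to 0.30). Except where fewer samples or genes define the alternative, the cause was not tested. Depth limits genes under 3 counts per library, such as Ifng.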
